A study of Mus musculus with 2 samples.

Results

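The mesendoderm transcription factor genes are 10 mouse genes, namely T, Eomes, Mixl1, Gsc, Lhx1, Evx1, Gata4, Gata6, Sox17 and Foxa2. MAFK-bound regions were assigned to a gene when the summit of the region, its position of strongest signal, lay within 50 kb of any annotated transcription start site (TSS) of that gene. By this rule 8 of the 16865 regions of the authors' optimal list belonged to 6 of the 10 genes. Eomes, Mixl1, Gata4, Gata6 and Foxa2 had 1 region each, Gsc had 3, and T, Sox17, Lhx1 and Evx1 had none.

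MAFK binding was measured by chromatin immunoprecipitation with sequencing (ChIP-seq) in ES-E14, a male mouse embryonic stem cell line of the 129/Ola strain. The samples were 2 biological replicates of 1 group, with no treatment or altered genotype in the labels. Both came from the same source of cells, so differences between them may be technical, and no second condition or differentiated stage was measured. The deposited files hold regions and not reads, so how deeply each replicate was sequenced is unknown, and the control library named in the labels was not analysed here. RNA was not measured, so regions are described by position, with no statement on which genes MAFK controls.

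Mesendoderm is the transient cell state of the primitive streak from which mesoderm and definitive endoderm arise, and it is induced by NODAL and WNT signals. The factors described here are mostly low in undifferentiated embryonic stem cells and are switched on as cells leave pluripotency. MAFK is a small MAF protein without a transactivation domain. As a homodimer it occupies palindromic MAF recognition elements (T-MARE), and with a CNC partner such as NRF2 or BACH1 it occupies composite elements that join a MAF part to an AP-1-like part.

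The bases at the summits are shown because the regions near these genes differed in how closely they resembled a MAF recognition element. Each sequence is the plus strand of mm10, 50 bases to either side of the summit, read from the RefSeq GRCm38.p6 genome. Capitals mark the 13 bases closest to the T-MARE palindrome on either strand. They are ordered from the fewest mismatches to the most, and Gsc regions are numbered by falling signal. The reference is C57BL/6J, so a base that differs in 129/Ola would not be seen.
Mixl1, chr1:180665594-180665694: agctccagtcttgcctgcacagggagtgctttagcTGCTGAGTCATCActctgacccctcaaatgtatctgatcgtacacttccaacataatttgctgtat
Gsc region 2, chr12:104463033-104463133: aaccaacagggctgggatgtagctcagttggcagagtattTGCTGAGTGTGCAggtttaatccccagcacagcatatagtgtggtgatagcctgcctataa
Eomes, chr9:118482493-118482593: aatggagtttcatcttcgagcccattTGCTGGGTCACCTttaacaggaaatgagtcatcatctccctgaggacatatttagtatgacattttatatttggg
Gata4, chr14:63222353-63222453: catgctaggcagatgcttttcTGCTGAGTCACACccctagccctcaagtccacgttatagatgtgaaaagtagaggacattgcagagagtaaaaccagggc
Gsc region 1, chr12:104474936-104475036: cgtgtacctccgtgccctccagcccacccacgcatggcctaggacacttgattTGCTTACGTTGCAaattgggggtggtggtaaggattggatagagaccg
Gsc region 3, chr12:104453334-104453434: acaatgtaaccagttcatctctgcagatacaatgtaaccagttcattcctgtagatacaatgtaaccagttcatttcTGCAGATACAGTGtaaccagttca
Foxa2, chr2:148030143-148030243: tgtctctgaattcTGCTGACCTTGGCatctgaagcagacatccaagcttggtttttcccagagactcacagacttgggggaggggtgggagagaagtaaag
The capitals differed from the palindrome at 1 base near Mixl1, 2 bases in Gsc region 2, 3 bases near Eomes and near Gata4, 4 bases in Gsc region 1, and 5 bases in Gsc region 3 and near Foxa2. The region near Gata6 had 6 mismatches, and its sequence is not shown. A match of 0 to 2 mismatches was found in 2 of the 8 regions, against 39.2% of all optimal regions and 0.401% of windows of the same width 1000 bp to either side of them. A best match of 5 or more mismatches was the most common outcome in those flanking windows, at 41.7% with 5 and 35.8% with 6. Among optimal regions 14.0% had 5 and 6.78% had 6. The bases at the summits near Foxa2 and Gata6 and in Gsc region 3 thus resembled the palindrome no more closely than most flanking sequence did.

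**Figure D1:**
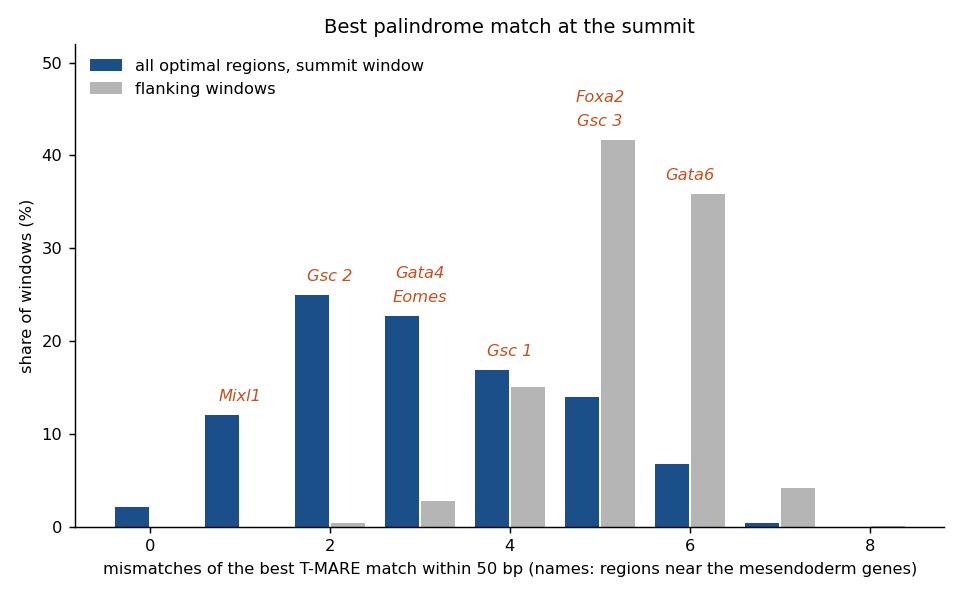
Number of mismatches to the T-MARE palindrome at the best match within 50 bp of the summit (horizontal axis) and percent of windows (vertical axis), in blue for all optimal regions and in grey for flanking windows. The 8 regions near mesendoderm genes, written above the bars, spread over 1 to 6 mismatches, while optimal regions peaked at 2 (25.02%) and flanking windows at 5 (41.7%).

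Shorter elements gave the same mixed picture. The MAF core TGCTGA occurred within 50 bp of the summit in 5 of the 8 regions, against 62.8% of the optimal regions on assembled chromosomes and 7.29% of the flanking windows. That share is near the background of bound regions. The ARE core, TGACNNNGC or TGAGNNNGC, occurred in 4 regions, against 60.3% of all. The AP-1 element, TGACTCA or TGAGTCA, occurred in 3 regions, against 37.8% of all. The NFE2-type composite element, which contains the AP-1 element, the MAF core and the ARE core, occurred in 2 regions, near Mixl1 and Gata4, against 28.2% of all and 0.0891% of flanking windows. All elements were searched on both strands, and a match describes the letters only.

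Gsc regions 1 and 3 held none of these elements, Eomes held the AP-1 element and the ARE core without a MAF core, and Foxa2 and Gata6 held the MAF core alone. Elements of the factors' own families were also searched. The T-box letters AGGTGTGA and the GATA letters AGATAA occurred in 0 of the 8 regions, against 0.368% and 4.77% of all optimal regions. A shuffled form of the MAF core, GTTCAG, occurred in 0 of 8, against 5.67% of all, so a count of 0 among 8 regions is uninformative for these letters.

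The signal value ranks regions within a list, and its scale is not given in the sources used here. The 8 regions had a median signal of 29.8, with a range of 19.3 to 54.4, against a median of 27.9, quartiles of 19.1 and 48.4 and a maximum of 509.4 over the optimal list. The strongest, near Gata6, ranked 3641 of 16865, and the weakest, near Gata4, ranked 12478.

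**Figure D2:**
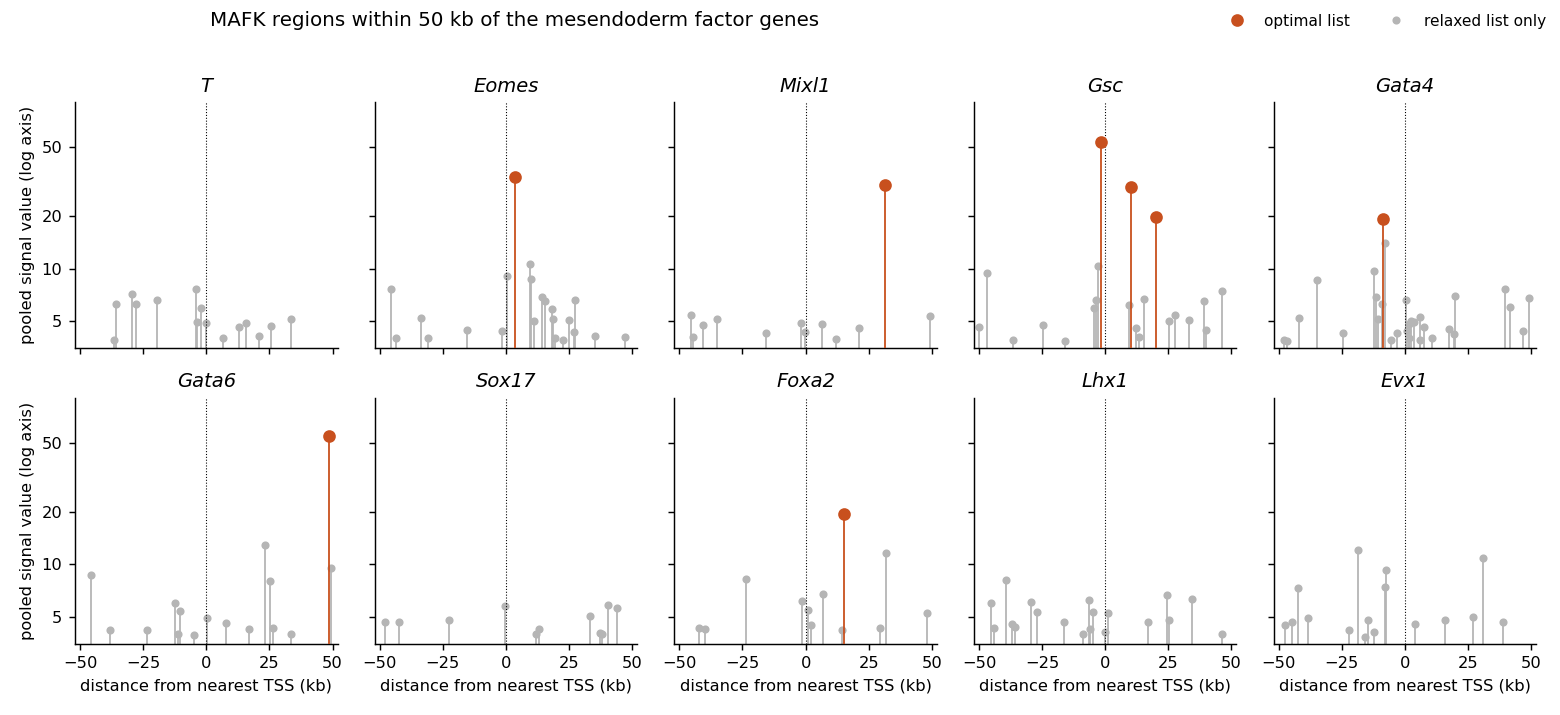
Summits within 50 kb of each of the 10 genes, by distance to the nearest TSS of that gene (horizontal axis, kb, downstream to the right). The vertical axis is the signal value in the pooled list (log axis), orange points are regions of the optimal list and grey points regions of the relaxed list only. Optimal regions stood at 6 genes, with the tallest at Gata6 (54.4) and Gsc (53.2), while relaxed regions were present in all 10 windows, against 95.4% of protein-coding genes.

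Among the T-box factors, only Eomes had a region. Eomes (ENSMUSG00000032446), a T-box factor required for definitive endoderm and for the epithelial to mesenchymal transition of the streak, had its region inside the gene, 3682 bp downstream of a TSS at chr9:118482395-118482690. The summit lay in intron 5 of the full-length transcripts and in the 3′ UTR of a shorter one. The signal was 33.8, rank 6693. In the replicates' own relaxed lists, which keep weak regions, the same position had a signal of 15.4 in replicate 1 and 17.6 in replicate 2. These placed it in the top 2.78% and 2.25% of those lists, so both replicates ranked it alike.

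T (ENSMUSG00000062327), also called Brachyury, is the T-box factor that marks the primitive streak and the notochord. It had no optimal region within 50 kb. The nearest optimal summit was 116599 bp upstream, with a signal of 20.4, and lay 905 bp from a TSS of Sft2d1. The strongest relaxed region of the pooled replicates within 50 kb had a signal of 7.64, 4270 bp upstream. The strongest in replicate 1 had a signal of 5.40, 15671 bp downstream, and the strongest in replicate 2 a signal of 6.77, 29327 bp upstream. The replicates therefore placed their strongest weak region near T at different positions.

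Among the homeobox factors, Gsc and Mixl1 had regions and Lhx1 and Evx1 did not. Gsc (ENSMUSG00000021095), goosecoid, marks the organizer and the anterior streak. Its region 1, chr12:104474838-104475133, lay 1656 bp upstream in an exon of the lncRNA Gm10000, which starts at the same promoter in the opposite direction, and had a signal of 53.2. Region 2, chr12:104462935-104463230, was intergenic, 10247 bp downstream, with a signal of 29.4, and region 3, chr12:104453236-104453531, was intergenic, 19946 bp downstream, with a signal of 19.7.

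The 3 Gsc regions differed in their replicate support. Region 1 had relaxed signals of 32.0 in replicate 1 and 21.1 in replicate 2, in the top 1.11% and 1.78%. Region 2 had 23.1 in replicate 1 and 5.27 in replicate 2, in the top 1.70% and 15.6%. Only region 1 was high in both replicates and present in both thresholded lists. The gap between replicates in region 2, 9.16-fold in list position, was larger than in 97.2% of the optimal regions seen in both relaxed lists, and its summit lay in repeat-masked sequence, as did 16.4% of all optimal summits.

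Gsc region 3 had relaxed signals of 13.0 in replicate 1 and 7.61 in replicate 2, in the top 3.42% and 7.12%, and was in neither thresholded list. Its sequence is a tandem repeat. When the 296 bp of the region were shifted by 28 bp, 56.3% of bases matched, against at most 37.6% at the best shift of any of the other 7 regions. Its 101 bases above show the unit several times. The part of the repeat in its signal was not tested. Region 1 had 12 CpG dinucleotides and 53.0% GC, against medians over optimal regions of 3 and 46.3%.

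Mixl1 (ENSMUSG00000026497), a paired-type homeobox factor of the streak needed for endoderm, had a region 31390 bp downstream at chr1:180665496-180665791, with a signal of 30.3. This summit lay in an intron of Lin9, whose TSS was closer, at 4167 bp. It had a relaxed signal of 19.9 in replicate 1 and 7.59 in replicate 2, in the top 2.05% and 7.15%. It was in both thresholded lists, although the 3.49-fold gap in list position exceeded that of 87.4% of regions. It was the only one of the 8 with every MAF-type element searched, the composite element and a T-MARE match with 1 mismatch included.

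Lhx1 (ENSMUSG00000018698), a LIM homeobox factor of the anterior streak and head organizer, had its nearest optimal summit 159268 bp downstream, with a signal of 31.1. Within 50 kb the strongest pooled relaxed region had a signal of 8.13. The strongest was 5.48 in replicate 1 and 5.58 in replicate 2, at 30267 and 34365 bp downstream, which are different positions.

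Evx1 (ENSMUSG00000005503), an even-skipped type homeobox factor of the posterior streak, had no optimal region within 50 kb. Its nearest optimal region, chr6:52415629-52415881, lay 102204 bp downstream with a signal of 224.3, in both replicates' thresholded lists, and Evx1 had the nearest protein-coding TSS. That signal was above those of all 8 regions within 50 kb of the mesendoderm genes. Inside the window the strongest pooled relaxed region had a signal of 12.1, 18604 bp upstream. The strongest was 7.17 in replicate 1, 7305 bp upstream, and 7.53 in replicate 2, 30949 bp downstream.

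The GATA factors each had 1 region, and these were of different kinds. Gata4 (ENSMUSG00000021944), a zinc finger factor of endoderm and heart, had its region in its own intron 2, 8796 bp upstream of the nearest TSS, at chr14:63222255-63222550. This nearest TSS is that of an alternative transcript starting inside the gene. The gene's 5′ end lies farther away but within 50 kb. The signal of 19.3 at this region was the lowest of the 8. The relaxed signal was 4.92 in replicate 1 and 14.8 in replicate 2, in the top 13.6% and 2.81%. It was thus high in replicate 2 alone, and was in the thresholded list of that replicate only.

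Gata6 (ENSMUSG00000005836), the related factor of primitive and definitive endoderm, had the highest signal, 54.4, at chr18:11107380-11107675. The region was intergenic and 48481 bp downstream of the nearest TSS, just inside the 50 kb limit. That TSS belongs to an alternative transcript, and with the gene's 5′ end alone the region would not be counted. The relaxed signal was 26.6 in replicate 1 and 26.5 in replicate 2, in the top 1.40% and 1.31%. The replicates ranked it closely, with a 1.07-fold gap that was larger than in only 7.36% of regions. Another protein-coding TSS, that of Mib1, was 309163 bp away. The summit window held 2 copies of the MAF core and no longer element.

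Of the endoderm factors, Foxa2 had a region and Sox17 did not. Foxa2 (ENSMUSG00000037025), the forkhead factor of the node, notochord and endoderm, had a region 15271 bp downstream at chr2:148030045-148030340, in intron 1 of the lincRNA 9030622O22Rik, with a signal of 19.5. The relaxed signal was 6.68 in replicate 1 and 12.1 in replicate 2, in the top 8.02% and 3.63%. The region was in neither thresholded list but was in the conservative lists of both processing runs. Its MAF core lay 34.5 bp from the summit.

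Sox17 (ENSMUSG00000025902), an HMG-box factor of definitive endoderm, had its nearest optimal summit 102382 bp upstream, with a signal of 39.4, in both thresholded lists. Within 50 kb the strongest pooled relaxed region had a signal of 5.86, the lowest such value of the 10 genes. The strongest was 3.25 in replicate 1 and 4.22 in replicate 2, at different positions.

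**Figure D3:**
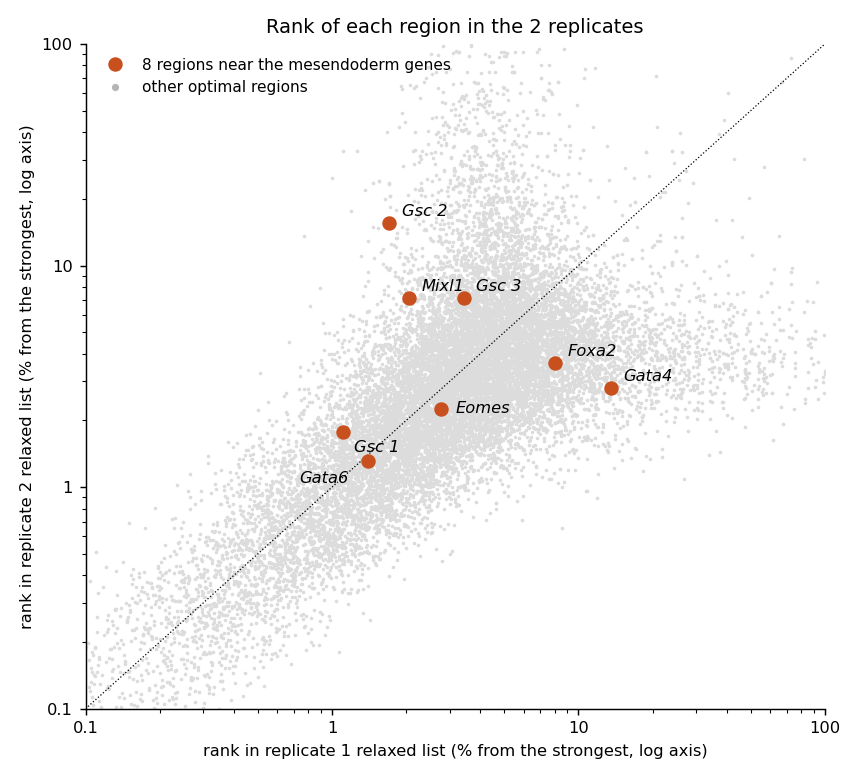
List position of each region in the relaxed list of replicate 1 (horizontal axis, percent from the top, log axis) and of replicate 2 (vertical axis, same scale). Named points are the 8 regions near mesendoderm genes and grey points the other optimal regions found in both relaxed lists. Gata6 and Gsc region 1 sit near the diagonal at 1.1% to 1.8%, while Gsc region 2 and Gata4 lie far to opposite sides of it.

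Both replicates' thresholded lists held 4 of the 8 regions, those of Eomes, Mixl1, Gata6 and Gsc region 1, against 35.4% of optimal regions. A relaxed region stood at all 8 positions in both replicates, against 97.8% of optimal regions. Regions of the same signal range, 8823 in number, were in both lists in 26.7% of cases. Conservative lists of both runs held 6 of the 8 regions, leaving out Gsc region 2 and Gata4, against 81.8% of optimal regions in the first run and 82.2% in the second. In the same signal range these shares were 91.8% and 91.9%. With only 8 regions, the counts in this paragraph are not read as above or below these shares. The median gap between replicates in list position, as an absolute log2 ratio, was 1.10 in the 8 regions and 0.72 over optimal regions.

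The number of genes with a region was set against all 21938 protein-coding genes. An optimal summit lay within 50 kb of 6 of the 10 mesendoderm genes, against 59.3% of protein-coding genes, so the count is no result about these genes. Within 10 kb it was 3 of 10, for Eomes, Gsc and Gata4, against 26.9%. Within 1 kb it was 0 of 10, against 8.66%. With the list of replicate 1, 4 of 10 genes had a region within 50 kb, against 37.6%, and with that of replicate 2, 5 of 10, against 44.7%. With the conservative list it was 5 of 10, against 58.0%. None of these counts lay far from its background.

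Where a region was present, its signal was set against that of all protein-coding genes with a region. The strongest region of the 6 genes had a median signal of 32.0, against 40.8 over protein-coding genes with a region. Gata6 was above 62.5% of those genes and Gsc above 61.7%, with Eomes at 41.2%, Mixl1 at 35.7%, Foxa2 at 13.0% and Gata4 at 12.6%. The mesendoderm genes had a mean of 0.8 regions per gene, against 1.26 over all protein-coding genes. With so few genes, neither this mean nor the median signal is read as below its background. Gsc, with 3 regions, belonged to the 17.1% of protein-coding genes with 3 or more.

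The relaxed list of the pooled replicates held a region within 50 kb of all 10 genes, against 95.4% of protein-coding genes, and genes without one were set to 0. By its strongest relaxed region within 50 kb, Gata6 exceeded 77.8% of protein-coding genes, Gsc 77.3%, Eomes 65.1%, Mixl1 61.8%, Foxa2 47.1%, Gata4 46.8%, Evx1 30.3%, Lhx1 17.5%, T 15.7% and Sox17 9.70%. Gata6 and Gsc were close to each other, as were Foxa2 and Gata4. The median of the strongest relaxed signal was 19.4 for the 10 genes and 21.1 for protein-coding genes, so the group lay near the middle of the genome's genes while its members were spread widely.

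**Figure D4:**
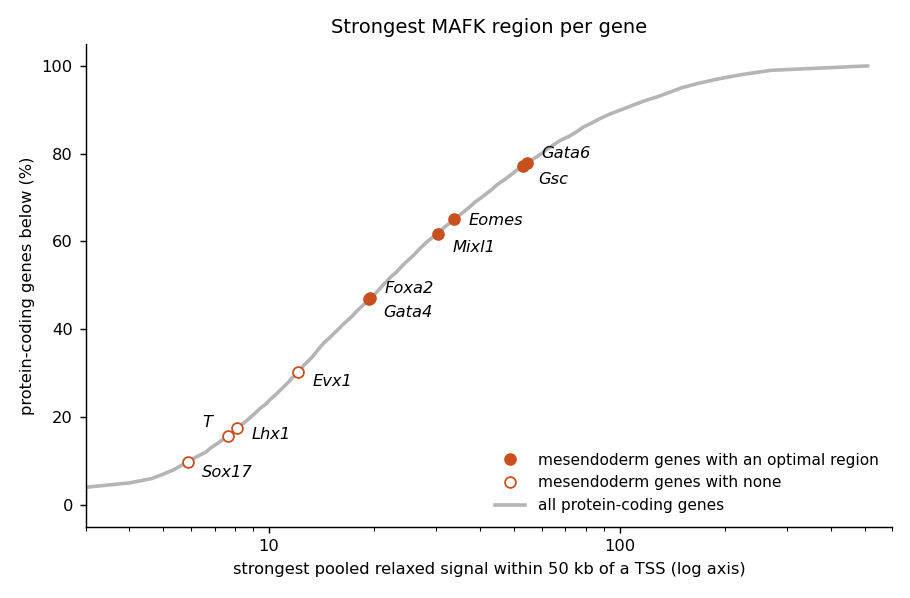
Strongest relaxed signal of the pooled replicates within 50 kb of a TSS (horizontal axis, log axis) and percent of protein-coding genes below it (vertical axis). Filled points are the 6 mesendoderm genes with an optimal region and open points the 4 with none. The open points run from Sox17 at 9.70% to Evx1 at 30.3% and the filled ones from Gata4 at 46.8% to Gata6 at 77.8%. At each of the 6 filled genes the strongest relaxed region was the optimal region itself. The gap between filled and open points thus follows in part from how they were divided.

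At the promoters themselves, 7 of the 10 genes had a relaxed region within 1 kb of a TSS, against 64.2% of protein-coding genes. The strongest was at Eomes, with a signal of 9.06 at 240 bp downstream. Gata4 followed with 6.61, then Sox17 with 5.80, Lhx1 with 5.23, Gata6 with 4.93, T with 4.85 and Mixl1 with 4.34. Gsc, Foxa2 and Evx1 had no relaxed region there. The median of this value over protein-coding genes that had one was 7.22, and only Eomes was above it.

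The 50 kb limit left out regions near several of these genes. Gata6 at 48481 bp was the member closest to it from inside, and the closest from outside were a Gsc region 54651 bp downstream, with a signal of 19.4, and an Eomes region 62667 bp upstream, with a signal of 17.5. Stronger regions lay further out. A signal of 96.8 lay 78140 bp downstream of Eomes and one of 114.3 lay 86341 bp upstream of it. A signal of 79.9 lay 89568 bp downstream of Gata4, and one of 59.9 lay 96773 bp upstream of Mixl1. These 4 were in both thresholded lists and exceeded every region inside the limit. The regions outside the limit are placed here by distance only, because their nearest gene was not recorded, so they are not assigned to these genes. The region 78140 bp downstream of Eomes was closer to a TSS of Golga4. A Golga4 TSS lay 7159 bp from a composite element that was 42478 bp downstream of Eomes.

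Composite elements without a bound region were then listed, because the windows of Lhx1 and Evx1, genes with no region, held such sequence. The 10 windows held 15 exact composite elements, of which 2 had an optimal summit within 50 bp, near Mixl1 and Gata4. Over the genome 5342 of 22884 elements did, or 23.3%. A relaxed region of the pooled replicates stood at 7 of the 15, against 42.9% over the genome. The T-MARE palindrome with up to 2 mismatches occurred 48 times, 2 of them with an optimal summit, against 6.50% of 105214 over the genome. Windows of T, Sox17 and Gsc held 0 composite elements, and those of Gata4 and Evx1 held 4 each.

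The following elements differ in how much MAFK signal stood over the same kind of sequence, and each is shown with 11 bases to either side on the plus strand of mm10. Capitals mark the composite element.
Gata4 first, chr14:63222363-63222394: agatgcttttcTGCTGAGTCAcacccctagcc
Gata4 second, chr14:63221533-63221564: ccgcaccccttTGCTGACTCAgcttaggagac
Evx1, chr6:52294870-52294901: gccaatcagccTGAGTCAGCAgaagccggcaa
Lhx1, chr11:84491760-84491791: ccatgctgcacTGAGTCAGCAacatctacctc
Foxa2, chr2:148045139-148045170: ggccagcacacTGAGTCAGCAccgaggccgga
The first Gata4 element lies under the optimal region of that gene. The second, in the same intron and 7942 bp upstream of the nearest TSS, had a pooled relaxed signal of 14.1, with 2.23 in replicate 1 and 10.2 in replicate 2. The Evx1 element, 18612 bp upstream, had a pooled relaxed signal of 12.1, with 5.45 in replicate 1 and 6.52 in replicate 2. These 3 elements thus had a relaxed region in both replicates, and the sizes of these signals are not compared between replicates. The Lhx1 element, in an intron of Aatf and 226 bp from its TSS, had a relaxed region in replicate 1 only, with a signal of 5.48. The Foxa2 element, in an intron of Foxa2 309 bp downstream of a TSS, had no relaxed region in either replicate or in the pooled list.

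**Figure D5:**
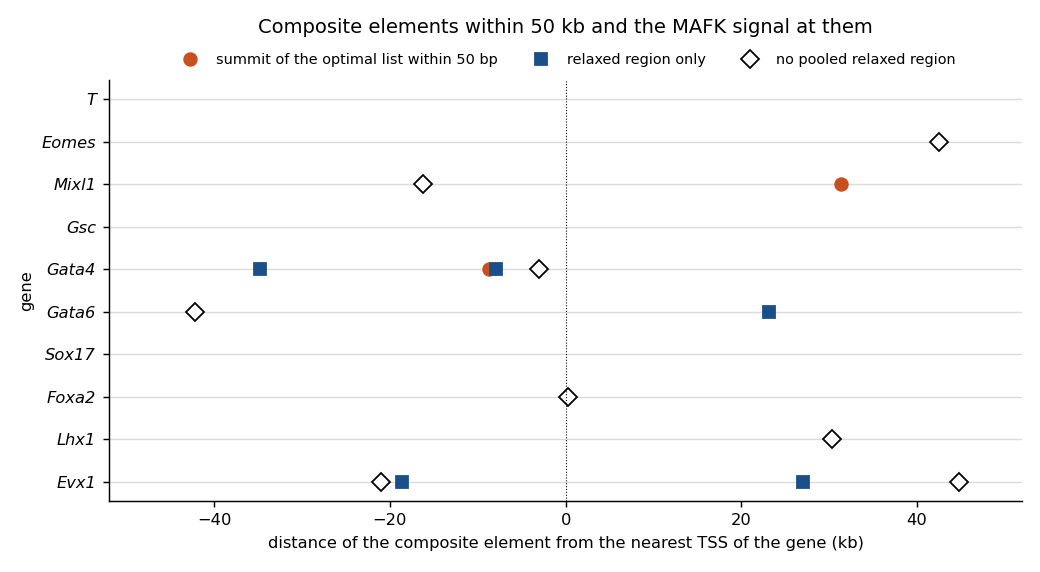
Composite elements within 50 kb of the 10 genes, by distance to the nearest TSS (horizontal axis, kb) and gene (vertical axis), with the symbol giving the list that had a summit within 50 bp. Of 15 elements, 2 had an optimal summit, 5 more a pooled relaxed region and 8 no pooled region.

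The pathway around these factors was described from a list of 12 NODAL pathway genes, covering ligands, co-receptors, receptors, inhibitors and SMAD and FOXH1 effectors. An optimal region stood within 50 kb of 11 of the 12, against 59.3% of protein-coding genes, and Acvr1b, a type I receptor gene, was the exception. The strongest region was in both replicates' thresholded lists for 4 of these 11 genes, against 35.4% of all optimal regions. That share is not limited to the strongest region of each gene. Lefty1 and Lefty2, neighbouring genes of NODAL inhibitors, shared their strongest region, which is counted for both. The strongest were at Smad4, the common SMAD, with a signal of 123.3, Acvr2a, a type II receptor, with 71.4, Smad3 with 62.9 and Smad2 with 55.7, the last 2 being the receptor-activated SMADs. The region of Smad4 was closer to Mex3c. For Nodal, Tdgf1, Acvr2b and Foxh1 the strongest region was also closer to the TSS of another gene (Eif4ebp2, Lrrc2, Acaa1a and Ppp1r16a). In the replicates' relaxed lists Acvr2a had 35.6 in replicate 1 and 40.5 in replicate 2, and Smad3 had 38.1 in replicate 1 and 23.6 in replicate 2. Their list positions are not given, so these signals are not compared between replicates.

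A list of 20 other gastrulation genes had a region within 50 kb at 12, again against 59.3%. The strongest were at Hand1, a factor of extraembryonic mesoderm, with 138.2, Wnt3a, a streak ligand, with 98.6, Cdx2, a posterior homeobox factor, with 87.3, and Otx2, an anterior homeobox factor, with 86.6. The region of Hand1 lay 40754 bp from its TSS and closer, at 10244 bp, to that of Sap30l. The genes without one were Mesp1, Mesp2, Msgn1, Wnt3, Cer1, Snai1, Pdgfra and Kdr. The median of the strongest signal was 32.0 at the 6 mesendoderm genes with a region, 47.6 at the NODAL pathway genes and 44.4 at the other gastrulation genes, against 40.8 over protein-coding genes.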

How the data were processed

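MAFK ChIP-seq lists of 2 ES-E14 replicates on mm10 were analysed. Per the labels' text notes, a first run made relaxed lists of each replicate and of both pooled, from which optimal and conservative lists were derived with the irreproducible discovery rate (IDR). A second run, from other alignments, gave the thresholded list of each replicate and another conservative list, so comparisons of the optimal list with the replicates' thresholded lists cross both runs. The sources used here name no aligner, caller or filter. The authors' signal value is a score of unstated scale, and the deposited IDR score is scaled and capped. Significance was deposited by the authors as a −log10 q-value.

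Summits were taken from the deposited offset, and TSSs from all GENCODE vM21 transcripts. Overlap meant 1 bp or more. Because the replicates' lists were processed separately, their signals were compared by position in the list. Elements were searched in 101 bp of GRCm38.p6 around each of 16836 summits on assembled chromosomes and in 33672 flanking windows, allowing 2 mismatches for the T-MARE palindrome within a length of 13 bases and none for the others. Repeat-masked bases are those in lower case in the genome file. No test was made: members and lists were chosen with earlier results of these data known, and counts are set beside the share of all regions or genes. All 10 genes and their regions are named. Genes without a region are given with their nearest optimal summit and strongest relaxed region, and the other lists with the 4 highest signals. Distances within 1 kb and the shares within 10 kb were added after the data had been seen. The routines for assignment and element search were tested on simulated data. Python 3.11.15, numpy 2.4.6, pandas 2.3.3, pysam 0.24.0 and matplotlib 3.10.9 were used. Alternatives were distances of 10 and 100 kb, other lists, the gene's 5′ end only, other search windows, 1 mismatch and a minimum overlap of 50% of the region.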

Additional observations from a re-analysis of the deposited data

How the results depend on the processing

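Of the 47 values computed under other settings, 24 moved. A count was called moved when it changed by more than 1.5 times. Median signals were called moved at smaller changes, such as from 29.8 to 29.4. With a limit of 10 kb there were 3 genes (Eomes, Gsc and Gata4) and 3 regions, 2 of them in both replicates' lists, with a median signal of 33.8, 1 MAF core and 1 composite element. With 100 kb the same 6 genes had 18 regions, 8 in both lists, 12 with the MAF core and 7 with the composite element. The conservative list of either run had 6 regions at 5 genes, without Gata4, 3 with the MAF core and 1 with the composite element. The strongest 50% of the optimal list left 5 regions at 4 genes, without Gata4 and Foxa2, 3 with the MAF core and 1 with the composite element. Except with 1 mismatch, region and element counts under other settings stand here without a share of all regions under the same setting. For 100 kb and for the strongest 50% no share of all genes is given either. Those counts, and their changes between settings, are therefore no result about these genes. Using the thresholded list of one replicate alone gave 5 to 6 regions, 3 with the MAF core and 1 to 2 with the composite element; the list of replicate 1 had 4 genes, without Gata4 and Foxa2, and that of replicate 2 had 5, without Foxa2. With only the 5′ end of each gene the median signal was 29.4, since the region near Gata6 was lost. Searching 25 bp around the summit found 3 MAF cores and 1 composite element. A 100 bp search, a minimum overlap of 50% of the region and 1 mismatch in the composite element left the counts within 1.5 times. With 1 mismatch the composite element occurred in 3 of the 8 regions, against 53.1% of optimal regions. The exact element occurred in 28.2% of them, so the background rose as well. Read depth is unknown, so whether weak regions such as those near T and Sox17 are limited by depth was not tested. No paired analysis was possible because there was 1 group.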
